A study of Mus musculus with 8 samples.

Results

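Mitochondrial ribosomal proteins are made from nuclear genes, imported into mitochondria and assembled with RNA transcribed from mitochondrial DNA into a ribosome of their own. That ribosome makes the core subunits of the respiratory chain and the ATP synthase that mitochondrial DNA encodes. Its large subunit forms peptide bonds and its small subunit reads the mRNA. The mRNAs of these proteins were followed here in liver sinusoidal endothelial cells, the fenestrated lining of the liver's capillaries, after a load of iron, a metal that mitochondria build into haem and iron-sulfur clusters. The genes were chosen by symbol: every measured target whose RefSeq accession belongs to a mouse gene named Mrpl or Mrps followed by a number and at most 1 letter. This gave 70 genes, 44 with a large subunit (Mrpl) and 26 with a small subunit (Mrps) symbol, of 23930 targets in all, with 1 target for each gene. All 70 passed the filter on low counts.

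Per the labels, the cells came from wild-type female Balb/c mice, described as young, 1 mouse per library, and were sorted by flow cytometry for dim CD45, high STAB2 and high CD146. The 2 groups differed in what was injected into a vein 5 h earlier, iron citrate (150 µg) or the 0.05 M citrate buffer alone. The design text gives 5 samples per group, and 4 libraries per group were used here. The assay was an amplicon panel (Ion AmpliSeq) that reads each gene through 1 short amplicon, so read numbers were compared between groups for 1 gene and not between genes. The labels say nothing on separate cohorts or days, so a p-value weighs only the spread among these libraries, and in bulk RNA fewer expressing cells and less RNA per cell cannot be told apart.

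Counts on targets ran from 7969520 to 11314659 per library. Citrate buffer replicate 1 stood apart from the others: log2 levels in it correlated with those of the other buffer libraries at a median of 0.84, where the other 7 libraries reached 0.96 to 0.98 within their groups, and gene families silent in liver and mostly without introns, such as olfactory receptors, took 2.42% of its counts. That share was 0.98% in buffer replicate 2 and 0.29% to 0.61% in the other 6 libraries. Counts of members past a threshold, medians and the log2 fold changes of named genes are therefore given for 8 libraries and again without buffer replicate 1. Markers of sinusoidal endothelium (12 genes) summed to between 13486 and 29201 CPM (counts scaled to the same library size) after buffer and between 24343 and 26096 CPM after iron. Those of hepatocytes (9 genes) summed to 413 to 829 and 345 to 698 CPM, those of Kupffer cells (12 genes, *C1qa* at 0 in at least 1 library) to 775 to 1075 and 688 to 1190 CPM, and those of lymphocytes (8 genes) to 632 to 1098 and 675 to 787 CPM. Stellate cell markers (8 genes) came to 383 to 1129 and 817 to 1121 CPM. Neutrophil markers (8 genes) stood at 508 CPM in buffer replicate 1, 142 to 195 CPM in the other buffer libraries and 268 to 299 CPM after iron. Genes with more reads weigh more in these sums. Median log2 fold changes (iron over buffer) of the tested markers follow, with values without buffer replicate 1 in brackets. They were 0.09 (-0.05) for sinusoidal endothelium, -0.24 (-0.45) for hepatocytes, 0.52 (0.17) for Kupffer cells and -0.11 (-0.17) for lymphocytes. Stellate cell markers had 0.37 (0.19) and neutrophil markers -0.03 (0.80). No marker of the 6 lists was called in 8 libraries, while without buffer replicate 1 4 neutrophil markers were called higher and 1 sinusoidal marker lower. The part of these cells and of buffer replicate 1 in the results below was not tested, apart from the values given without that library.

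Iron citrate left no mitochondrial ribosomal protein mRNA past the threshold in either direction. With edgeR's quasi-likelihood F-test, fitted on 14601 targets with Benjamini-Hochberg adjustment over all of them, 0 of 70 genes were called higher and 0 lower at an adjusted p under 0.05. Over all tested targets 0.527% were called higher and 0.0274% lower. Without buffer replicate 1 the counts were again 0 and 0, beside 1.50% and 0.258% of 14701 tested targets. The smallest adjusted p of any member was 0.333 in 8 libraries and 0.194 without that library. DESeq2 called 1 member lower, *Mrpl43*, beside 0.473% of all targets, and 0 higher.

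Below the threshold the values leaned to one side. The log2 fold change, iron over buffer, was below 0 for 52 of 70 members (74.3%), beside 51.0% of all tested targets, and without buffer replicate 1 for 54 (77.1%), beside 54.3%. At an unadjusted p under 0.05, 6 members were lower with iron (8.57%, beside 8.0% of all targets) and 0 were higher (beside 6.57%). That count of 6 is near the background. The background includes 1102 targets of the silent families, of which 99.5% were below 0 and 22.0% lower at that p. These shares were 94.4% and 2.54% without buffer replicate 1. In that fit 5 members were lower (7.14%, beside 4.66%) and 0 higher (beside 8.50%). All buffer libraries lay above all iron libraries for 6 members (8.57%, beside 2.29% of all targets), and for no member was the order the other way (beside 6.36%). Without buffer replicate 1 the 2 counts were 11 (15.7%, beside 4.19%) and 0 (beside 8.72%).

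The count at unadjusted p depended on single libraries. Of 70 members, it was 3 without buffer replicate 4 (beside 18.6% of all targets), 1 without iron replicate 1 (beside 3.26%), 1 without iron replicate 2 (beside 3.72%) and 3 without iron replicate 4 (beside 4.92%). It was 3 with no filter on low counts (beside 8.03%) and 2 with the replicate number as a block (beside 4.24%). Each of these counts was a smaller share of the members than of all targets. Other scalings raised the count to 18 with upper-quartile factors (beside 11.8%) and 14 with library totals (beside 10.8%). With both, the count of members rose by a larger factor than the background. DESeq2 gave 10 (beside 13.4%). The count was 16 with limma-voom and sample weights (beside 5.26%), 16 without buffer replicates 1 and 2 (beside 5.48%) and 16 with the share of silent families as a covariate (beside 7.34%). Each count of 16 was a larger share of the members than of all targets. Among these fits only DESeq2 called a member at an adjusted p under 0.05, *Mrpl43*.

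The size of each change was bounded as well. The 95% intervals of 67 of 70 members lay within a 2-fold change in either direction and those of 39 within a 1.5-fold change (68 and 42 without buffer replicate 1). The 3 intervals that reached 2-fold belonged to *Mrpl44*, down to -1.18 on the log2 scale, to *Mrps17*, up to 1.14, and to *Mrps18c*, up to 1.08. The median standard error (SE) of a log2 fold change was 0.17, and the median SD of log2 CPM over 4 libraries was 0.21 after buffer and 0.18 after iron. Mean levels ran from 2.62 CPM for *Mrps7* to 158 CPM for *Mrpl51*, with a median of 26.2 CPM, and the lowest count in any library was 16.

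**Figure D1:**
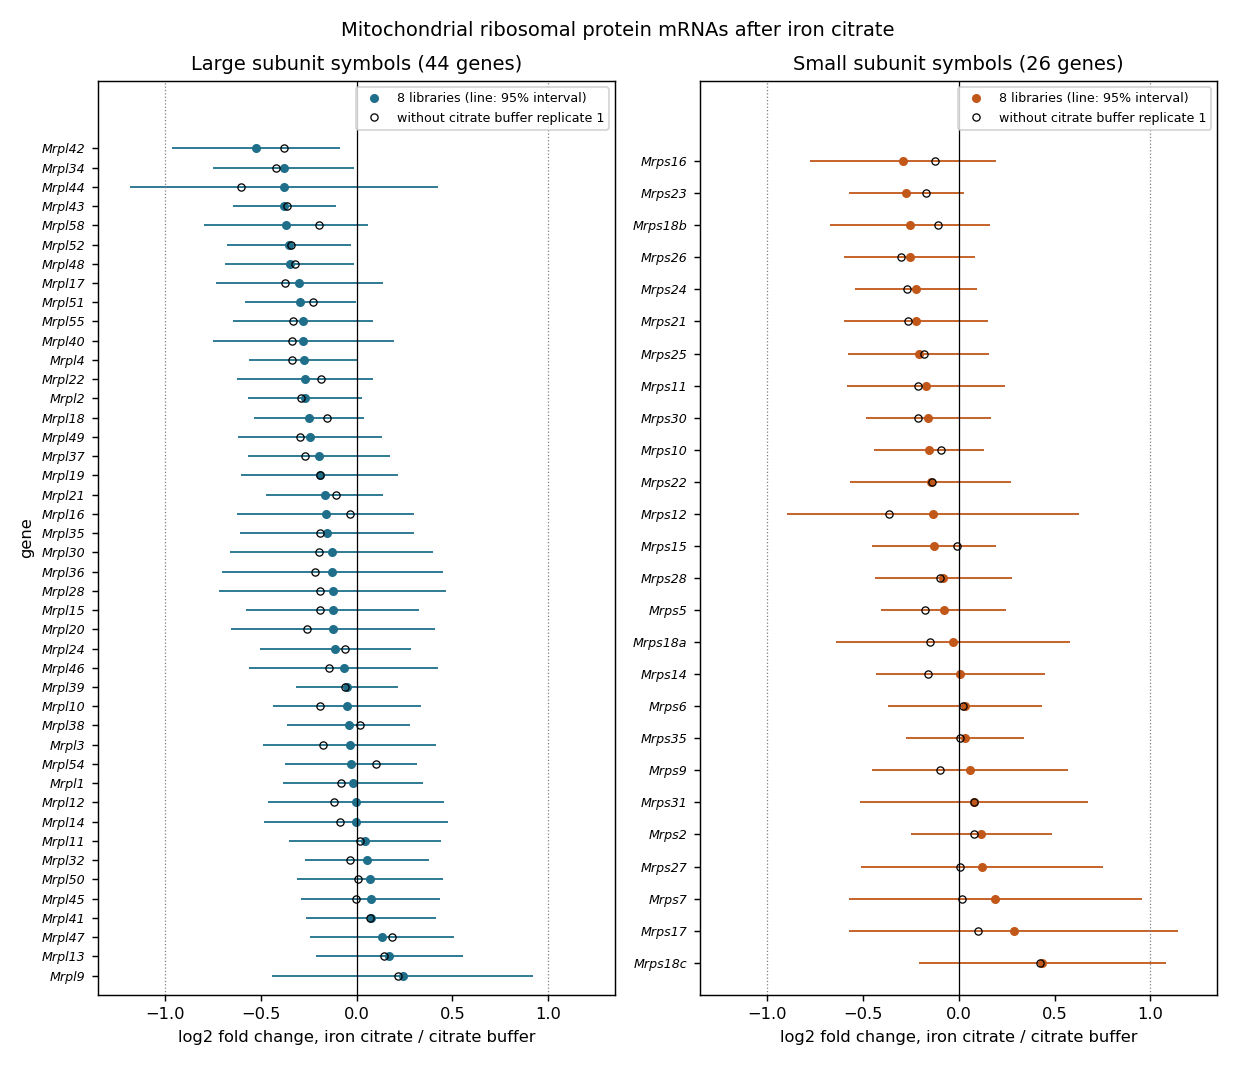
Log2 fold change (iron citrate over citrate buffer, edgeR) of each of the 44 large subunit and 26 small subunit genes, with the 95% interval from 8 libraries as a line and the value without citrate buffer replicate 1 as an open circle. Dotted lines mark a 2-fold change. Filled points left of 0 belong to 52 of 70 genes, and 67 of 70 intervals stay inside the dotted lines.

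By subunit, the 44 large subunit genes had a median log2 fold change of -0.13 and a range of -0.52 to 0.24, with 36 below 0. Without buffer replicate 1 the median was -0.19, again with 36 below 0. The 26 small subunit genes had a median of -0.10 and a range of -0.29 to 0.44, with 16 below 0, and a median of -0.12 with 18 below 0 without that library. The median over all tested targets was -0.01, and -0.04 without buffer replicate 1. All 6 members lower at an unadjusted p under 0.05 carried large subunit symbols (13.6% of 44, beside 8.0% of all targets). Of the 6 members whose groups did not overlap, 5 carried such symbols (11.4% of 44) and 1 a small subunit symbol (3.85% of 26), beside 2.29% of all targets. Without buffer replicate 1, 9 large (20.5%) and 2 small subunit genes (7.69%) had lower iron values without overlap, beside 4.19%. In that fit 5 large (11.4%) and 0 small subunit genes were lower at an unadjusted p under 0.05, beside 4.66%. Whether the subunits differed was not tested.

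**Figure D2:**
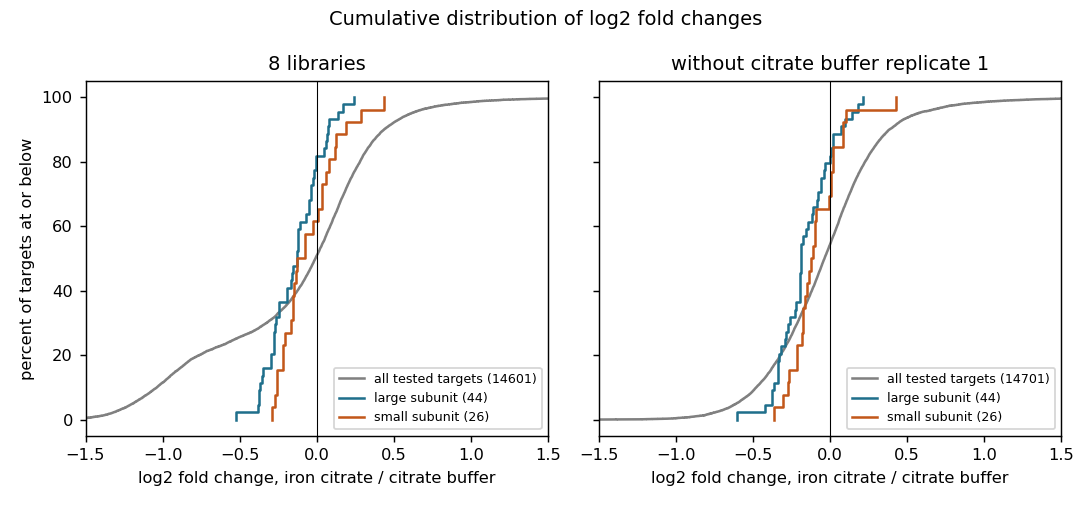
Cumulative percent of targets at or below each log2 fold change (iron citrate over citrate buffer) for all tested targets, the large subunit and the small subunit genes, with 8 libraries on the left and without citrate buffer replicate 1 on the right. The subunit curves cross 0 at a higher percent than the curve of all targets, and the broad lower tail of all targets on the left, with a lower quartile of -0.53, shrinks to -0.26 on the right.

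The summed level of a subunit gives each library 1 value, in which genes with more reads weigh more. The sums and their ratio are therefore compared between groups and not between subunits. The 44 large subunit genes together drew 2006, 1833, 1993 and 2066 CPM in buffer replicates 1 to 4 and 1668, 1689, 1955 and 1741 CPM in iron replicates 1 to 4. Iron replicate 3 lay among the buffer libraries and the other 3 iron libraries lay below all of them. The means were 1975 ± 99.6 CPM (SD, n = 4) and 1763 ± 132 CPM, a change of -10.7%, or -10.2% without buffer replicate 1. The 26 small subunit genes drew 821, 846, 925 and 912 CPM after buffer and 772, 811, 865 and 799 CPM after iron. Here too iron replicate 3 was the only iron library above a buffer library, and the means of 876 ± 50.4 and 812 ± 39.2 CPM differed by -7.36% (-9.25% without buffer replicate 1). The ratio of the large to the small sum was 2.26 ± 0.13 after buffer, or 2.20 ± 0.06 (n = 3) without replicate 1, and 2.17 ± 0.07 after iron.

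These sums use library sizes scaled by TMM factors, which correct for differences in composition and came to 1.15 in buffer replicate 1 and 0.94 to 1.06 in the others. With plain library totals the groups did not overlap. The lowest buffer sum was then 1940 CPM against a highest iron sum of 1835 CPM for the large subunit, and 863 against 812 CPM for the small, and the changes were -16.9% and -13.5% (-13.2% and -12.3% without buffer replicate 1). Plain totals also moved the median log2 fold change of all targets from -0.01 to -0.11.

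**Figure D3:**
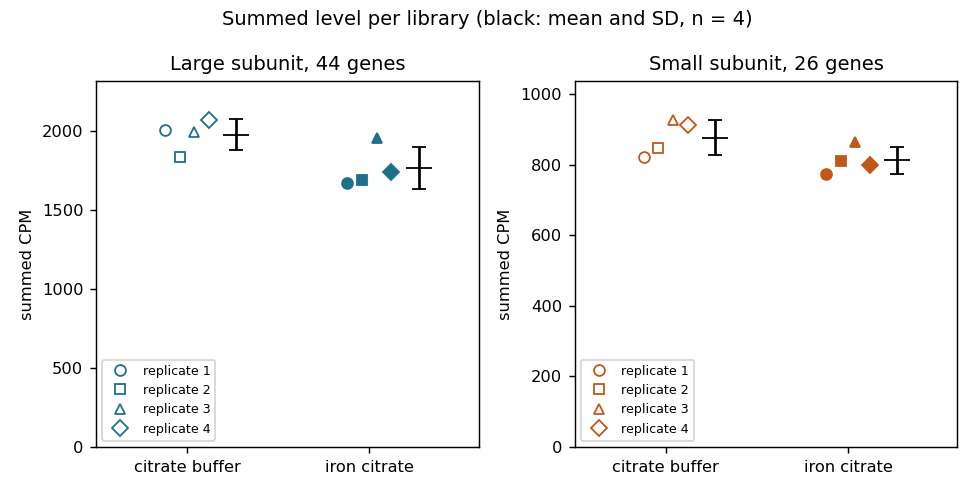
Summed CPM of the 44 large subunit genes (left) and the 26 small subunit genes (right) in each library, with the mean and SD of 4 libraries per group in black. Iron replicate 3 (filled triangle) lies within the buffer range in both panels, at 1955 and 865 CPM, and the other 3 iron libraries lie below all buffer libraries.

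Libraries differed in how often they held the extremes. Buffer replicates 3 and 4 were the highest library for 19 and 21 of 70 members, and iron replicates 1, 2 and 4 were the lowest for 14, 11 and 15. Buffer replicate 1 was the lowest for 15 and the highest for 13, and its median absolute log2 deviation was 0.24, against 0.11 to 0.15 in the other 7 libraries. Deviations were taken from a member's mean over those 7 libraries. That mean leaves out buffer replicate 1, so its value is not on equal terms with the others.

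Of all members *Mrpl43* had the smallest p in 8 libraries. It encodes a protein of the large subunit that bacterial ribosomes lack. It stood at 76.8, 77.4, 70.6 and 71.7 CPM in buffer replicates 1 to 4 and at 61.2, 50.6, 62.6 and 53.8 CPM in iron replicates 1 to 4, so every iron library was below every buffer library. The means were 74.1 ± 3.46 and 57.1 ± 5.79 CPM, a log2 fold change of -0.38 (SE 0.12, edgeR adjusted p = 0.333), and -0.36 (adjusted p = 0.194) without buffer replicate 1. DESeq2 gave -0.41 (SE 0.11, adjusted p = 0.00894). Over all alternatives the log2 fold change stayed between -0.50 and -0.32, and DESeq2's was the only adjusted p under 0.05. The gene overlaps *Twnk*, the mitochondrial DNA helicase, which had a log2 fold change of 0.23 (0.13 without buffer replicate 1). In the RefSeq annotation 17 of 70 members overlap another protein-coding gene, among them *Mrpl2*, *Mrpl18*, *Mrpl24*, *Mrpl44*, *Mrpl48*, *Mrps2*, *Mrps6*, *Mrps7*, *Mrps18a*, *Mrps23* and *Mrps25*. The sources used here do not state whether counting used strand, so reads of such pairs may not be separated.

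*Mrpl34* and *Mrpl48* also had lower values in every iron library. *Mrpl34*, the counterpart of a small bacterial large subunit protein, drew 26.8, 25.8, 35.4 and 28.2 CPM after buffer and 22.4, 23.4, 24.8 and 18.7 CPM after iron. Its lowest buffer and highest iron libraries were close, and the log2 fold change was -0.38 (SE 0.17, edgeR adjusted p = 0.333), or -0.42 (adjusted p = 0.259) without buffer replicate 1. *Mrpl48*, a protein of the central protuberance at the top of the large subunit, drew 26.2, 21.2, 25.4 and 26.4 CPM after buffer and 19.9, 19.9, 19.6 and 18.3 CPM after iron. The iron libraries were close together, at 19.4 ± 0.791 CPM against 24.8 ± 2.42 CPM, and the log2 fold change was -0.35 (SE 0.15, edgeR adjusted p = 0.333), or -0.32 without buffer replicate 1.

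The starts of *Mrpl43* and *Mrpl34* are shown because these genes had the lowest iron values relative to buffer among the non-overlapping members, and because the series' title names ETS1, a factor whose family binds CCGGAAG. Each window runs 5′ to 3′ on the gene's strand from 220 bases before to 30 bases after the RefSeq transcript start (GRCm38.p6). Capitals mark matches to CCGGAAG or, for the antioxidant response element bound by NRF2, to TGACNNNGC, on either strand. *Mrpl43* lies at chr19:45006413-45006662 on the minus strand and *Mrpl34* at chr8:71464706-71464955 on the plus strand.
Mrpl43: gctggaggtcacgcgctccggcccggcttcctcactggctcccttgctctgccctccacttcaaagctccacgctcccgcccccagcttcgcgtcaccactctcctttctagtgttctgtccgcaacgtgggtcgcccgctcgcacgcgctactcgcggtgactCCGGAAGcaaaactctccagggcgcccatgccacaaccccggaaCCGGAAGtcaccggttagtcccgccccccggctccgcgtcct
Mrpl34: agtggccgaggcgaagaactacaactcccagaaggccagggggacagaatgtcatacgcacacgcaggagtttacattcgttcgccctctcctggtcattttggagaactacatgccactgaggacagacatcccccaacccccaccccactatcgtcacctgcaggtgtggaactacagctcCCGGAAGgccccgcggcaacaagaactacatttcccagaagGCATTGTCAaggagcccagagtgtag
*Mrpl43* held CCGGAAG 56 and 12 bases before its start. *Mrpl34* held it 37 bases before its start, and a TGACNNNGC match, read on the other strand as GCATTGTCA, just after its start. Another gene, *Abhd8*, lies 219 bases from *Mrpl34*. A match is a run of letters and not a measured binding site.

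Of the proteins at the peptidyl transferase centre, where peptide bonds form, 4 were measured, and their median log2 fold change was -0.21 (-0.23 without buffer replicate 1). *Mrpl2* drew 31.1, 30.8, 36.3 and 31.7 CPM after buffer and 24.9, 28.1, 28.8 and 26.2 CPM after iron. The groups did not overlap, and the log2 fold change was -0.27 (edgeR adjusted p = 0.333), or -0.29 without buffer replicate 1. *Mrpl4*, which also reaches into the exit tunnel, stood at 55.0, 67.4, 67.4 and 63.1 CPM after buffer and 51.9, 50.0, 58.9 and 48.0 CPM after iron. Only buffer replicate 1 lay within the iron range, and the log2 fold change went from -0.28 to -0.34 (adjusted p = 0.223) without it. *Mrpl3*, the other named gene of this group, had -0.04, or -0.17 without buffer replicate 1.

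The 7 measured proteins of the central protuberance had a median of -0.28, all below 0, and a median of -0.32 without buffer replicate 1, then with 6 below 0. *Mrpl18*, which takes part in the contact with the RNA of the protuberance, drew 163, 134, 123 and 128 CPM after buffer and 104, 116, 118 and 123 CPM after iron. Iron replicate 4 lay just above the lowest buffer library, and the log2 fold change was -0.25 (edgeR adjusted p = 0.337), or -0.15 (adjusted p = 0.586) without buffer replicate 1, its highest library. *Mrpl52*, among the 3 large subunit genes with most reads, drew 125, 114, 111.2 and 137 CPM after buffer and 75.9, 92.4, 111.3 and 102 CPM after iron. Iron replicate 3 reached the lowest buffer library, and the log2 fold change was -0.35 (edgeR adjusted p = 0.333), or -0.34 without buffer replicate 1. *Mrpl38* had -0.04, and 0.02 without that library.

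Around the exit tunnel, through which the new peptide leaves, 6 genes were measured, with a median of -0.19 (-0.12 without buffer replicate 1). *Mrpl22* drew 33.4, 26.4, 27.6 and 27.3 CPM after buffer and 19.4, 25.5, 24.6 and 25.8 CPM after iron, without overlap but with iron replicate 1 well below the rest. Its log2 fold change of -0.27 (edgeR adjusted p = 0.369) became -0.19 without buffer replicate 1. *Mrpl44*, a protein with an RNase III-like fold near the tunnel, had few reads, with a lowest count of 32. It stood at 3.05, 5.93, 8.64 and 6.63 CPM after buffer and 4.30, 4.61, 4.20 and 5.51 CPM after iron, so buffer replicate 1 was the lowest of all 8 libraries and the other 3 buffer libraries were the highest. The log2 fold change was -0.38 (SE 0.36, edgeR adjusted p = 0.58), and -0.60 (SE 0.29, adjusted p = 0.391) without buffer replicate 1. *Mrpl24* had -0.11 (-0.06 without that library).

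The stalk, where translation factors dock, had the median closest to 0 of these 4 structural groups. Its 4 measured genes had -0.02 (-0.05 without buffer replicate 1). *Mrpl10* drew 37.1, 56.5, 57.6 and 64.1 CPM after buffer and 53.4, 52.0, 56.0 and 46.6 CPM after iron. Buffer replicate 1 was the lowest library, the other 3 buffer libraries lay above all iron libraries, and the log2 fold change moved from -0.05 to -0.19 without it. *Mrpl11* had a log2 fold change of 0.05, or 0.02 without that library.

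Mammalian mitoribosomes hold both proteins inherited from the bacterial ribosome and proteins added later. The 43 members with a bacterial counterpart had a median log2 fold change of -0.12 (-0.15 without buffer replicate 1) and the 27 without one had -0.20 (-0.17), a difference that was not tested. *Mrpl51*, the member with most reads, stood at 198, 163, 154 and 182 CPM after buffer and 136, 135, 162 and 135 CPM after iron. Iron replicate 3 was as high as the lower buffer libraries while the other 3 iron libraries lay together, and the log2 fold change was -0.29 (edgeR adjusted p = 0.333), or -0.23 without buffer replicate 1. *Mrpl42*, chosen after its values were seen as the lowest log2 fold change of all members, drew 45.0, 28.9, 32.9 and 32.9 CPM after buffer and 19.4, 22.2, 30.8 and 24.8 CPM after iron. Iron replicate 3 overlapped the buffer group, and the log2 fold change was -0.52 (SE 0.20, edgeR adjusted p = 0.333), or -0.38 (adjusted p = 0.340) without buffer replicate 1. *Mrpl28*, with few reads, had -0.12 (-0.19 without that library) and *Mrpl1* had -0.02 (-0.08).

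**Figure D4:**
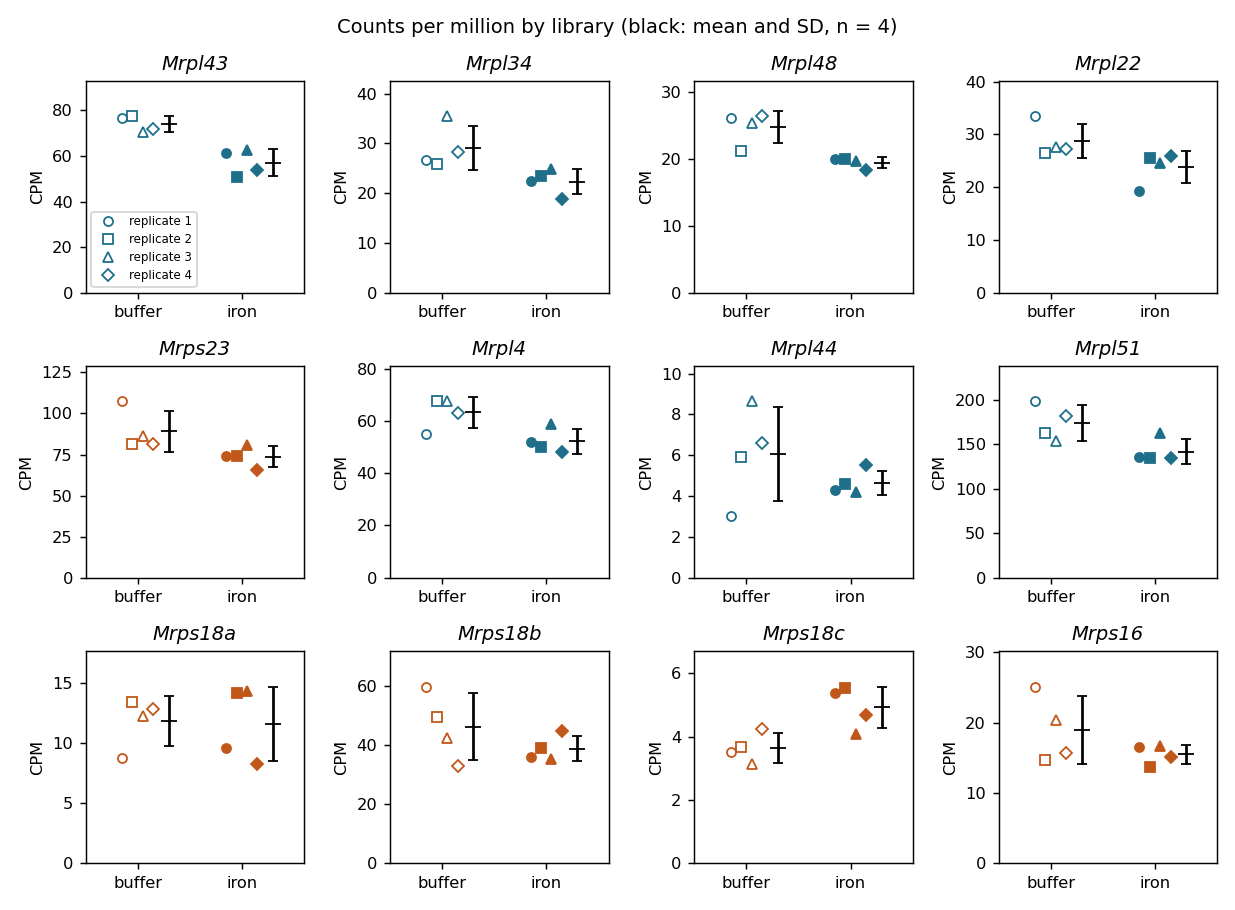
CPM in each library for 12 of the named genes (large subunit symbols in blue, small subunit symbols in orange), with the mean and SD of 4 libraries per group in black. The groups of *Mrpl43*, *Mrpl34*, *Mrpl48*, *Mrpl22* and *Mrps23* do not overlap, those of *Mrpl4* and *Mrpl44* overlap through buffer replicate 1 alone, and *Mrps18c* has the higher iron mean.

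In the small subunit, *Mrps23* alone had groups that did not overlap in 8 libraries (3.85% of 26, near the 2.29% of all targets). *Mrps23*, a protein that bacterial ribosomes lack, stood at 107, 81.3, 86.5 and 81.2 CPM after buffer and 74.3, 74.0, 81.1 and 65.6 CPM after iron. Iron replicate 3, at 81.1 CPM, lay just under the lowest buffer library. The log2 fold change was -0.27 (SE 0.13, edgeR adjusted p = 0.333), and -0.17 (adjusted p = 0.557) without buffer replicate 1, its highest library. *Mrps14*, the small subunit gene with most reads, drew 80.3, 136, 150 and 147 CPM after buffer and 115, 129, 149 and 123 CPM after iron. Buffer replicate 1 was the lowest library by far, and the log2 fold change was 0.01 with it and -0.16 without it. *Mrps21* had -0.22, or -0.26 without buffer replicate 1. *Mrps7*, with the fewest reads of all members, had 0.19 (edgeR adjusted p = 0.788), and 0.02 without buffer replicate 1, its lowest library. *Mrps2* had 0.12 (0.08 without that library) and *Mrps5* -0.08 (-0.18), both with bacterial counterparts.

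Iron-sulfur clusters tie the small subunit to iron: structures of the mammalian mitoribosome place them between MRPS16 and MRPS25 and between MRPS6 and MRPS18C. None of these 4 mRNAs was called, and with *Mrps18a*, listed beside them, their median log2 fold change was -0.03 (-0.12 without buffer replicate 1). *Mrps16* drew 25.1, 14.7, 20.3 and 15.6 CPM after buffer and 16.5, 13.7, 16.6 and 15.2 CPM after iron, with overlapping groups and a log2 fold change of -0.29, or -0.12 without buffer replicate 1, its highest library. *Mrps25* drew 26.3, 27.6, 23.0 and 21.7 CPM after buffer and 19.7, 24.1, 23.2 and 18.3 CPM after iron, again overlapping, with a log2 fold change of -0.21 (-0.18 without buffer replicate 1). *Mrps6* had overlapping values of 19.7, 17.3, 21.6 and 22.9 CPM after buffer and 17.9, 18.3, 23.8 and 23.2 CPM after iron, with a log2 fold change of 0.03 (0.02). The partners of a cluster thus had log2 fold changes of -0.29 and -0.21 in the first pair and 0.03 and 0.44 in the other, or -0.12 and -0.18, and 0.02 and 0.42, without buffer replicate 1.

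*Mrps18c* had the highest log2 fold change of all 70 members. It stood at 3.52, 3.67, 3.12 and 4.24 CPM after buffer and 5.38, 5.53, 4.10 and 4.68 CPM after iron. The groups met at buffer replicate 4 and iron replicate 3, and the means were 3.64 ± 0.465 and 4.92 ± 0.661 CPM. The log2 fold change was 0.44 (SE 0.29, edgeR adjusted p = 0.413), and 0.42 (adjusted p = 0.581) without buffer replicate 1. Its lowest count was 32. Its start, shown for the member with the highest log2 fold change, lies at chr5:100798539-100798788 on the plus strand (GRCm38.p6, same window and capitals).
Mrps18c: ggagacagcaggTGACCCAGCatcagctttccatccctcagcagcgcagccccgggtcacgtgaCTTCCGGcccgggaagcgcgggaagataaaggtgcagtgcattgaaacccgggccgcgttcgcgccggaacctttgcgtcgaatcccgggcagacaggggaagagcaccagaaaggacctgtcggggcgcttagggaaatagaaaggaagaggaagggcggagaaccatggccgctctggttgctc
It held CCGGAAG on the other strand, printed as CTTCCGG, 156 bases before its start, and TGACCCAGC 208 bases before it. In the RefSeq annotation *Helq* lies 98 bases from *Mrps18c*, so the window may also reach that gene. The CCGGAAG letters stood before the starts of *Mrpl43*, *Mrpl34* and *Mrps18c*, genes shown with their values known. Whether the letters bear on the log2 fold changes was not tested.

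*Mrps18a*, *Mrps18b* and *Mrps18c* descend from 1 ancestral gene, and their products sit in different places: MRPS18A is built into the large subunit despite its symbol. *Mrps18a* drew 8.76, 13.4, 12.2 and 12.9 CPM after buffer and 9.58, 14.2, 14.3 and 8.27 CPM after iron, interleaved, with a log2 fold change of -0.03 (-0.15 without buffer replicate 1). *Mrps18b* drew 59.8, 49.6, 42.4 and 33.0 CPM after buffer and 35.8, 38.9, 35.4 and 44.7 CPM after iron. Its buffer libraries spanned the iron range, and the log2 fold change was -0.26, or -0.11 without buffer replicate 1. None of the 3 paralogues was called, and whether they differed from each other was not tested. *Mrps30*, whose product also belongs to the large subunit, had -0.16 (-0.21). Counting *Mrps18a* and *Mrps30* with the large subunit left both subunit medians at -0.13 and -0.10.

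Across the family, promoter windows (250 bases before to 50 after the start, RefSeq, GRCm38.p6) were found for 62 of 70 members. CCGGAAG occurred on either strand in 21 of them (33.9%), in 16.8% of tested genes with a window and in 9.93% of all genes with one. The extended YY1 motif occurred in 5 (8.06%, beside 1.54% of tested genes), the palindromic NRF1 motif in 3 (4.84%, beside 1.97%) and TGACNNNGC in 14 (22.6%, beside 15.6%). Both strands were searched, and 1 window could hold several motifs. Members with CCGGAAG had a median log2 fold change of -0.26 (19 of 21 below 0) and the 41 without it -0.08 (27 below 0). These medians were -0.19 and -0.12 without buffer replicate 1. Over all tested genes the order was the other way, 0.07 with CCGGAAG and -0.01 without, or 0.01 and -0.04 without buffer replicate 1. These are descriptions, and no difference between them was tested.

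The genes that work with this ribosome were read from 6 lists of 82 tested genes in all. With edgeR none was called in 8 libraries. At an unadjusted p under 0.05, 3 were higher (beside 6.57% of all targets) and 3 lower (beside 8.0%). Both counts were a smaller share of the 82 genes than of all targets. Without buffer replicate 1, none of the 6 lists had a gene lower at that p (beside 4.66%). Higher at that p were then 1 of the translation factors and mRNA-binding proteins and 2 of the tRNA synthetases (beside 8.50%). So were 2 genes of mitochondrial DNA expression and biogenesis and 1 protease or chaperone. Mitoribosomal proteins with other symbols (4 genes) had a median log2 fold change of -0.07, or -0.18 without buffer replicate 1. *Dap3*, a small subunit protein that binds GTP, had 0.02, and -0.11 without that library. *Ptcd3*, a small subunit protein with RNA-binding repeats, had 0.11 (0.14). The median of the assembly factors (21 genes) turned from 0.04 to -0.04 without buffer replicate 1. Among them *Mterf3* had 0.18 (0.07) and *Mterf4*, which guides an RNA methyltransferase to the large subunit, -0.22 (-0.37). The median of the mitochondrial tRNA synthetases (16 genes) turned likewise, from 0.04 to -0.03, with *Aars2* at -0.62 (edgeR adjusted p = 0.333), or -0.42 without buffer replicate 1, and *Cars2* at -0.43 (-0.48).

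Translation factors and mRNA-binding proteins (14 genes) had a median of 0.05 (0.08 without buffer replicate 1). They include *Lrpprc*, whose product stabilises mitochondrial mRNAs. *Lrpprc* stood at 52.1, 40.6, 46.6 and 50.1 CPM after buffer and 68.1, 58.7, 70.4 and 69.4 CPM after iron, every iron library above every buffer library. The means were 47.3 ± 5.05 and 66.7 ± 5.37 CPM. The log2 fold change was 0.49 (SE 0.13, edgeR adjusted p = 0.208) in 8 libraries and 0.55 (SE 0.13, adjusted p = 0.0466) without buffer replicate 1, where it was the only call of the 6 lists. It was also called by DESeq2 (adjusted p = 0.0191) and by limma-voom (adjusted p = 0.0488). Over all alternatives its adjusted p ran from 0.0191 to 0.557.

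Genes of mitochondrial DNA expression and biogenesis (15 genes) had a median of 0.17 (0.12 without buffer replicate 1). *Tfam*, which packages mitochondrial DNA and takes part in starting its transcription, had 0.17 (edgeR adjusted p = 0.554), or 0.12 without that library. *Polrmt*, the mitochondrial RNA polymerase, stood at 2.86, 7.52, 15.9 and 18.6 CPM after buffer and 12.1, 10.5, 19.1 and 13.2 CPM after iron, a spread that took its log2 fold change from 0.30 to -0.01 without buffer replicate 1. Proteases and chaperones of the mitochondrial stress response (12 genes) had a median of 0.10 (0.04 without buffer replicate 1), with *Lonp1* at -0.31 (edgeR adjusted p = 0.333), or -0.21, and *Clpp* at -0.01, or 0.05, without that library. *Hspa9*, a mitochondrial chaperone named after its values were seen because DESeq2 called it, stood at 102, 92.4, 116 and 127 CPM after buffer and 144, 146, 176 and 164 CPM after iron. Its groups did not overlap, and the log2 fold change was 0.52 (edgeR adjusted p = 0.214, DESeq2 adjusted p = 0.0206), or 0.49 (edgeR adjusted p = 0.0969) without buffer replicate 1.

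The same summary was made for 2 related gene families. The nuclear genes of the respiratory chain and ATP synthase (67 tested) had a median log2 fold change of -0.11, with 53 (79.1%) below 0, 0 called and 3 lower at an unadjusted p under 0.05. Without buffer replicate 1 the median was -0.15, with 56 (83.6%) below 0 and 8 lower at that p (11.9%, beside 4.66%). The cytosolic ribosomal proteins on the panel (19 tested) had medians of 0.00 and -0.07 with 0 called. Targets within the members' range of mean CPM (12090) had medians of -0.02 and -0.05. In 8 libraries the share of genes below 0 was 74.3% for the mitochondrial ribosomal proteins, 79.1% for the respiratory chain and ATP synthase and 47.4% for the cytosolic ribosomal proteins. The shares were 77.1%, 83.6% and 73.7% without buffer replicate 1, and no difference between families was tested.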

How the data were processed

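The authors deposited whole-number read counts per RefSeq target, 1 file for each of 8 libraries. The submitters' processing notes list HTSeq 0.6.0 and DESeq2 1.18.1. The sources used here name no aligner, build, strand setting or read filter. Summary lines (2.15% to 4.60% of reads) were left out. Accessions were matched to symbols with the RefSeq reference tables (18128 versioned, 4324 unversioned, 110 through another table, 1368 unmatched). Reads carry no molecular identifiers, so counting error understates the error of a level.

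The counts were fitted with edgeR 4.0.16 in R 4.3.3 (filterByExpr, TMM, robust quasi-likelihood F-test) over all targets, with Benjamini-Hochberg adjustment. SE and 95% intervals were derived from the F statistic. CPM use TMM-scaled library sizes. No list was tested. DESeq2 1.42.0 and limma 3.58.1 (voom), other scalings and filters, a replicate block, left-out libraries and a covariate for silent families were alternatives. The members, lists and alternatives were chosen with earlier results of these data known.

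Named genes were any called member, up to 5 per direction and fit that changed most among members without overlap between groups and with a mean CPM of 5 or more, the 3 with most and 2 with fewest reads of each subunit, and all iron-sulfur, *Mrps18* and misnamed members. Of other lists, called genes or the first 2 measured were named. No 2 libraries of a group agreed within sampling noise. The edgeR step was tested on simulated data for iron against buffer over 14470 genes: of 99 genes with a 2-fold change 35 were called, of 98 with a 4-fold change 67, and of 14273 without change 4.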

Additional observations from a re-analysis of the deposited data

Results flagged for a closer look

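In 4 of 86 groups of 4 libraries among the reported genes, the highest library lay far from the other 3 for the width of the group (Dixon's test at the 95% level, which chance passes in about 1 in 20 groups). *Mrpl2* reached 36.3 CPM in buffer replicate 3, while the other buffer libraries lay between 30.8 and 31.7 CPM. *Mrpl51* reached 162 CPM in iron replicate 3, with the others at 135 to 136 CPM. *Cars2* reached 7.48 CPM in buffer replicate 3, with the others at 5.01 to 5.30 CPM. *Clpp* reached 45.8 CPM in buffer replicate 1, with the others at 38.7 to 39.8 CPM.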

How the results depend on the processing

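The median log2 fold change stayed below 0 for both subunits under every alternative run, from -0.25 to -0.11 for the large and from -0.21 to -0.03 for the small. The large subunit median was -0.24 with upper-quartile factors, -0.25 without buffer replicates 1 and 2 and -0.23 with the silent-family covariate. That of the small subunit was -0.21 with upper-quartile factors and -0.19 with library totals, where the median of all targets moved to -0.12 and -0.11. Relative to all targets, the medians with those 2 scalings were -0.12 for the large and -0.09 for the small subunit. Leaving out each library in turn gave -0.22 to -0.11 and -0.12 to -0.03. The summed level changed by -16.9% (large) and -13.5% (small) with library totals, and by -13.9% to -9.09% and -9.39% to -5.58% with a library left out.

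DESeq2 called 1 member lower, and all other settings called 0 in both directions. Members lower at an unadjusted p under 0.05 numbered 18 with upper-quartile factors, 14 with library totals, 10 with DESeq2, 16 with limma-voom, 16 without buffer replicates 1 and 2, 16 with the covariate, 3 with no filter and 2 with the replicate block, and 1 to 6 with a library left out. With upper-quartile factors 11.8% of all targets were lower at that p, with library totals 10.8%, with DESeq2 13.4% and with limma-voom 5.26%. A check of replicate numbers gave no clear sign of pairing: residual correlations ranged from -0.32 to 0.61, and 2 of 8 libraries correlated best with their own number. With 4 libraries per group this check cannot exclude a pairing. Of the genes in the 6 other lists, 2 were called higher by DESeq2, 1 by limma-voom and 0 to 1 with a library left out.

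The sign of the log2 fold change turned under at least 1 alternative in 14 of 41 named genes. Without buffer replicates 1 and 2 the values were 0.044 for *Clpp*, -0.15 for *Dap3*, -0.14 for *Mrpl11*, 0.011 for *Mrpl38*, -0.20 for *Mrps14*, 0.034 for *Mrps18b*, -0.093 for *Mrps6*, -0.12 for *Mrps7* and -0.32 for *Polrmt*. In the same order, the covariate gave 0.058, -0.18, -0.055, 0.042, -0.25, 0.014, -0.043, -0.063 and -0.27. *Dap3* and *Mrps14* turned with relative log expression factors (-0.0082, -0.018), upper-quartile factors (-0.085, -0.093), library totals (-0.068, -0.077), DESeq2 (-0.0069, -0.018), limma-voom (-0.075, -0.19) and a mean CPM of at least 5 (-0.0025, -0.012). *Mrpl11* and *Mrps6* turned with upper-quartile factors (-0.059, -0.077) and library totals (-0.047, -0.065), and *Ptcd3* with upper-quartile factors (-0.0042). With limma-voom *Mrps6* had -0.059, *Mrps7* -0.031 and *Polrmt* -0.014, and with no filter *Clpp* had 0.0052. With a library left out, values ran from -0.039 to 0.066 for *Clpp*, -0.11 to 0.16 for *Dap3*, -0.080 to 0.035 for *Mrpl1*, -0.19 to 0.046 for *Mrpl10*, -0.052 to 0.14 for *Mrpl11*, -0.17 to 0.082 for *Mrpl3*, -0.15 to 0.033 for *Mrpl38*, -0.16 to 0.089 for *Mrps14*, -0.15 to 0.10 for *Mrps18a*, -0.039 to 0.10 for *Mrps6* and -0.013 to 0.65 for *Polrmt*. The cause of these shifts was not tested. *Mrps7* and *Mrps18c* have no value with a mean CPM of at least 5. Counts as low as 16 limit what could be detected for such genes.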
